A study of Mus musculus with 37 samples.

Results

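SPP1 (osteopontin), CD44 and 7 integrin subunits were followed as 9 human Ensembl gene IDs, matched to the row IDs of the deposited count table by the part before the dot, out of 60708 rows in all. The IDs were SPP1 (ENSG00000118785.15), CD44 (ENSG00000026508.20), ITGAV (ENSG00000138448.12), ITGB1 (ENSG00000150093.20), ITGB3 (ENSG00000259207.9), ITGB5 (ENSG00000082781.12), ITGA4 (ENSG00000115232.14), ITGA5 (ENSG00000161638.11) and ITGA9 (ENSG00000144668.12). The table does not pair IDs with symbols, so the symbols are those of the chosen list. The samples were mouse, whereas the reads had been aligned to the human GRCh38 genome, so that each value counts only the mouse reads that aligned to the human gene. A mouse transcript whose 3′ end differs from the human one can be missed, and reads can fall on a related gene, so the level of one row cannot be set against that of another.

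Osteopontin is a secreted glycoprotein of the extracellular matrix that also acts as a cytokine on macrophages and lymphocytes. Through its RGD sequence it binds integrins that pair the αV subunit (ITGAV) with β1, β3 or β5 (ITGB1, ITGB3, ITGB5) and the integrin α5β1 (ITGA5 with ITGB1). Through a neighbouring motif that thrombin exposes it binds α4β1 and α9β1 (ITGA4 or ITGA9 with ITGB1). CD44, the hyaluronan receptor, is a further reported receptor, and it is also known as a marker that activated and memory lymphocytes carry at raised levels.

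Splenocytes of wild-type FVB mice were cultured for 48 h with mouse RAW264.7 cells, which are an established line of macrophage character, or with the medium of such cells. For the preceding 72 h these RAW264.7 cells were held at 21% oxygen (normoxia) or at 1% oxygen (hypoxia), with SPP1 protein at 1 µg/mL or without it, and the splenocytes then received the medium (medium, 11 libraries), the RAW264.7 cells as they were (cells, 12 libraries) or the RAW264.7 cells after a media wash (washed, 12 libraries). Naive splenocytes (2 libraries) received neither, and the labels give no culture time for them. The 37 libraries formed 13 groups, of which 11 held 3 libraries, while the naive group and the medium, normoxia, no-SPP1 group (replicates 2 and 3) held 2. Brefeldin A, a blocker of protein secretion, was added to the cultures before collection. The oxygen level and SPP1 were applied to the RAW264.7 cells before they or their medium met the splenocytes. SPP1 protein left in the culture medium could reach the splenocytes in the medium mode, and in the cells mode if that medium stayed on. The labels name a wash only for the washed mode, and carry-over of SPP1 was not tested. The labels do not say whether RAW264.7 cells were removed from the collected splenocytes. The study describes the profiled cells as lymphocytes taken from the co-cultures, without naming how they were separated. RNA of RAW264.7 cells may therefore have entered the cells and washed libraries, and its share was not tested. The splenocyte label could not be checked against marker genes, because no table used here pairs the human IDs with symbols.

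Each library held between 631574 and 1337314 counts (median 1063211). Of the 60708 IDs, 22657 had a count and 5193 passed the filter on low counts and were tested. Levels are given as CPM, the counts per 1000000 counts of the library, with library sizes scaled by the trimmed mean of M-values (TMM). On a principal component analysis 4 libraries stood apart on the second component: replicates 1 and 2 of washed normoxia SPP1, replicate 1 of washed hypoxia SPP1, and replicate 2 of cells hypoxia no-SPP1. Replicate 1 of washed normoxia SPP1 and of washed hypoxia SPP1 had low totals, 691539 and 761571 counts. They also had the fewest IDs with a count, 8008 and 7102. Replicate 2 of washed normoxia SPP1 and of cells hypoxia no-SPP1 had 962194 and 979573 counts. Medium normoxia no-SPP1 replicate 3 and medium hypoxia no-SPP1 replicate 1 stood apart from the other medium libraries on the first component. Where a log2 fold change moved by over 1.5 times, turned its sign or crossed the threshold without one of these sets, the value without it is given beside it. Leaving out the 4 libraries left washed normoxia SPP1 with replicate 3 alone. Leaving out the 2 medium libraries left medium normoxia no-SPP1 with replicate 2 alone. The labels ask for a minimum RNA integrity but also cite a span with lower values, and no value per library was used here.

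The ligand itself was not captured. SPP1 had 0 counts in each of the 37 libraries, naive and exposed, with and without added SPP1 protein. A count of 0 allows up to 3 counts, which is 0.0752 CPM over all 39892977 counts and 2.24 to 4.75 CPM in a single library. This limit covers counting error only and applies to reads aligned to the human row, not to the mouse Spp1 transcript.

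Among the receptors, CD44 was the only one with a mean of at least 10 counts. It had 1228 counts in all, a mean of 33.2 per library and a range from 1 to 91, and it was counted in 37 of 37 libraries. Its mean was above that of 57.6% of the tested IDs. The other 8 members, SPP1 included, had a mean under 10 counts and were poorly captured. ITGB1, the β subunit shared by α4, α5, α9 and αV, had 297 counts (mean 8.03, at most 31 in a library), and ITGA4 had 139 counts (mean 3.76, at most 25). ITGA9 had 15 counts in 12 libraries, ITGB5 had 7 counts in 5 libraries, ITGAV had 4 counts in 3 libraries and ITGA5 had 1 count in 1 library. ITGB3, the β3 subunit, had 0 counts in all 37 libraries, with the same limits as for SPP1.

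**Figure D1:**
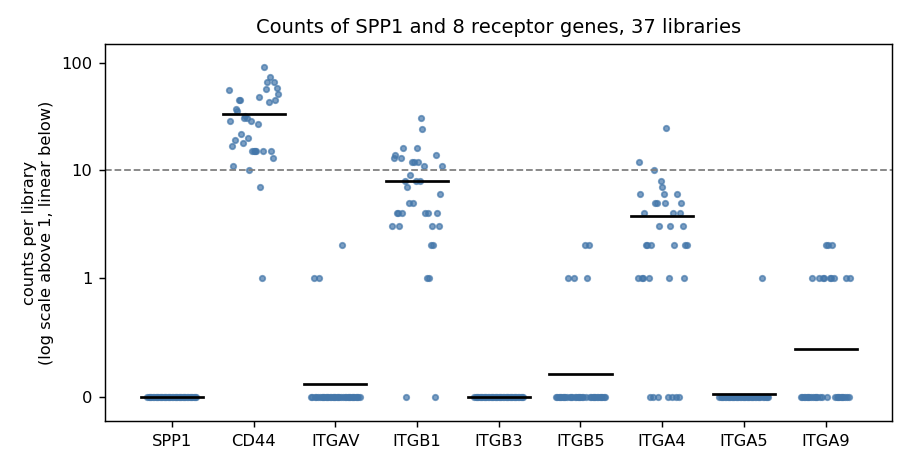
Counts per library of SPP1 and its 8 receptor genes, with 37 points per gene, a black line at the mean and a dashed line at 10 counts; the vertical axis is logarithmic above 1 count and linear below. CD44 lies above the dashed line on average with a mean of 33.2, ITGB1 and ITGA4 lie below it with means of 8.03 and 3.76, and SPP1 and ITGB3 are at 0 throughout.

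CD44, ITGB1 and ITGA4 passed the filter on low counts, 3 of the 9 members, and only these were tested. With no filter, the 4 other members with a count gave no adjusted p under 0.0938 in any of the 16 comparisons by edgeR. The few counts of these members lay as follows. ITGA9 had 9 of its 15 counts in the medium libraries, 3 in the naive, 2 in the washed and 1 in the cells libraries. ITGB5 had 3 counts in the naive libraries, 3 in the medium libraries, 1 in the cells libraries and 0 in the washed libraries. ITGAV had 2 counts in the naive and 2 in the cells libraries, and the 1 count of ITGA5 was in a washed library. None of these members was called in any comparison.

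The first comparison asked whether any member varied over the 13 groups. A member is called where its adjusted p (edgeR quasi-likelihood test, Benjamini-Hochberg over the 5193 tested IDs) was under 0.05. CD44 was called (adjusted p = 0.000197), and ITGB1 (adjusted p = 0.0843) and ITGA4 (adjusted p = 0.282) were not, against 53.6% of all tested IDs. ITGB1 was called with DESeq2 (adjusted p = 0.0195), with every ID tested (adjusted p = 0.0385) and without the 4 libraries apart on the second component (adjusted p = 0.0404). ITGA4 was called only without the 2 medium libraries apart on the first component. That fit left medium normoxia no-SPP1 with replicate 2 alone, the library with the most ITGA4 counts.

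CD44 was lowest in the naive splenocytes and highest in the washed mode. The naive libraries had 6.83 and 1.30 CPM, which were 7 counts and 1 count. The 11 medium libraries ran from 7.71 to 33.5 CPM with a median of 18.0 CPM. The 12 cells libraries ran from 13.2 to 44.6 CPM with a median of 24.1 CPM. The 12 washed libraries ran from 15.0 to 83.6 CPM with a median of 50.5 CPM. Neither naive library overlapped with any of the 35 exposed ones, whereas the 3 modes overlapped with one another. The gap was narrow: naive replicate 1 had 6.83 CPM (7 counts), and medium hypoxia no-SPP1 replicate 1 had 7.71 CPM (10 counts). The Poisson interval of naive replicate 1, for counting error only, reached 14.1 CPM, above the lowest medium levels. The share of all tested IDs whose naive libraries lay apart in this way was not counted. The mean levels were 4.07 ± 3.91 CPM (SD, n = 2) in naive, 19.8 ± 8.62 (SD, n = 11) in medium, 26.4 ± 9.86 (SD, n = 12) in cells and 50.2 ± 21.5 (SD, n = 12) in washed.

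CD44 was higher than in naive splenocytes in all 3 modes. Since no culture time is given for the naive splenocytes, exposure cannot be told apart from 48 h of culture. The difference was 4.38-fold in medium (95% interval 1.76 to 10.9, adjusted p = 0.0111), 5.88-fold in cells (2.38 to 14.5, adjusted p = 0.00263) and 11.1-fold in washed (4.46 to 27.6, adjusted p = 8.23e-05). ITGB1 and ITGA4 were not called in any of these, so 1 of 3 tested members was called in each, against 32.4%, 27.3% and 34.5% of all tested IDs. The 3 comparisons share the same 2 naive libraries, whose counting intervals for CD44 were wide (95% Poisson interval 2.81 to 14.4 counts and 0.0253 to 5.57 counts). Without naive replicate 2, which held the single count, the log2 fold change went from 2.13 to 1.49 in medium (adjusted p = 0.213) and from 2.56 to 1.92 in cells (adjusted p = 0.120), and the calls were lost, while that in washed went from 3.47 to 2.85 and the call held (adjusted p = 0.0156). Without naive replicate 1 the log2 fold changes were 3.78, 4.21 and 5.13. Since these are bulk libraries, a change in the share of cells that carry a transcript and a change in that transcript per cell cannot be told apart.

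Between the modes, CD44 was higher in washed than in both others. It was 2.53-fold higher in washed than in medium (95% interval 1.78 to 3.61, adjusted p = 2.58e-05), where 58.7% of all tested IDs were called. It was 1.89-fold higher in washed than in cells (1.35 to 2.64, adjusted p = 0.0164), where 7.24% of all tested IDs were called. Between cells and medium the log2 fold change of CD44 was 0.42 with a 95% interval from -0.09 to 0.94 (adjusted p = 0.170), where 48.7% were called. The difference between washed and cells was called without each of the 24 libraries in turn, with log2 fold changes from 0.72 to 1.05, and was 1.19 (adjusted p = 0.00274) without the 4 libraries apart on the second component. The comparisons with medium share the medium libraries.

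Condition by condition, the CD44 values of washed and cells were as follows. Without SPP1, the 3 washed normoxia libraries had 46.6, 54.9 and 52.8 CPM of CD44 and the 3 cells normoxia libraries had 21.0, 18.0 and 24.3 CPM. The 3 washed hypoxia libraries without SPP1 had 64.6, 44.9 and 82.4 CPM and the 3 cells hypoxia libraries had 13.2, 22.2 and 36.5 CPM. Neither of these pairs of groups overlapped, and the ratios of the mean levels were 2.44 and 2.67. No test was run within single conditions, and the share of all tested IDs that lay apart was not counted. With SPP1, the washed normoxia libraries had 24.8, 15.0 and 60.9 CPM and the cells normoxia libraries had 27.8, 37.7 and 33.3 CPM, at a ratio of 1.02. The washed hypoxia libraries with SPP1 had 24.1, 83.6 and 48.1 CPM and the cells hypoxia libraries had 44.6, 24.0 and 13.9 CPM, at a ratio of 1.89. With SPP1 both pairs of groups overlapped, and the 3 lowest of the 6 washed values were those of the libraries that stood apart on the second component.

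**Figure D2:**
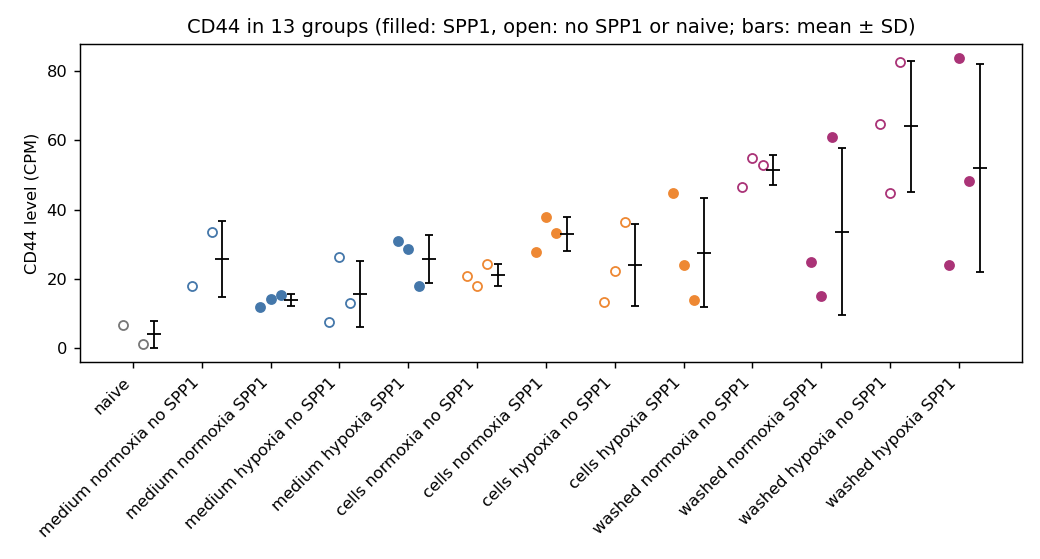
CD44 level in CPM of every library (points; filled with SPP1, open without it or naive) in the 13 groups, with the group mean and SD as a black bar. The naive libraries sit at 1.30 and 6.83 CPM below all others, the 6 washed libraries without SPP1 sit between 44.9 and 82.4 CPM, and the washed groups with SPP1 spread from 15.0 to 83.6 CPM.

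In the order of the 13 group means, CD44 went from naive (4.07 CPM) through medium normoxia SPP1 (13.8 CPM) and medium hypoxia no-SPP1 (15.7 CPM) up to washed normoxia no-SPP1 (51.4 CPM), washed hypoxia SPP1 (51.9 CPM) and washed hypoxia no-SPP1 (64.0 CPM). Of the 12 pairs of neighbours in that order, 11 had overlapping ranges, and only naive lay apart from the next group. The order of neighbouring exposed groups is therefore within their spread.

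The central comparison set SPP1-treated against untreated RAW264.7 conditions within each mode. No member was called in any mode by edgeR, with 0 of 3 members at an unadjusted p under 0.05 and 0 called by DESeq2 in each. All tested IDs were called at 0.25% in medium, 0% in cells and 0.0193% in washed, which were 13, 0 and 1 IDs. At an unadjusted p under 0.05 there were 478, 87 and 527 IDs. The number of IDs called depended on the fit. In medium it was 0 with only the compared groups, 19 with DESeq2 and 25 of 22657 with every ID with a count. In washed it was 0 with only the compared groups, 8 with DESeq2 and 43 of 22657 with every ID with a count. Leaving out single washed libraries gave 0% to 2.97% of all tested IDs in washed. The share in medium also depended on the library left out. In all these fits 0 members were called.

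For CD44 in the medium mode, the 6 libraries with SPP1 ran from 11.9 to 31.0 CPM with a median of 16.6 CPM and the 5 without it from 7.71 to 33.5 CPM with a median of 18.1 CPM. The log2 fold change was -0.08 with a 95% interval from -0.84 to 0.67 (adjusted p = 0.973), and it was -0.0021 without the 2 medium libraries apart on the first component. In the cells mode the 6 libraries with SPP1 ran from 13.9 to 44.6 CPM (median 30.6 CPM) and the 6 without it from 13.2 to 36.5 CPM (median 21.6 CPM). The log2 fold change there was 0.41, with an interval from -0.28 to 1.11 (adjusted p = 1.00). The groups overlapped in both modes.

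In the washed mode the 6 libraries with SPP1 had a CD44 level of 42.8 ± 26.3 CPM (SD, n = 6) and the 6 without it 57.7 ± 14.0 CPM (SD, n = 6). The log2 fold change was -0.43 with a 95% interval from -1.09 to 0.24 (adjusted p = 0.683). The 3 washed SPP1 libraries that stood apart on the second component had 24.1, 24.8 and 15.0 CPM, and the 3 others had 83.6, 48.1 and 60.9 CPM. Without the 4 libraries apart, the washed SPP1 mean was 64.2 ± 17.9 CPM (SD, n = 3) and the log2 fold change was 0.15. In that fit washed normoxia SPP1 was represented by replicate 3 alone, at 60.9 CPM. The direction of the SPP1 difference in the washed mode therefore turned with the 4 libraries.

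**Figure D3:**
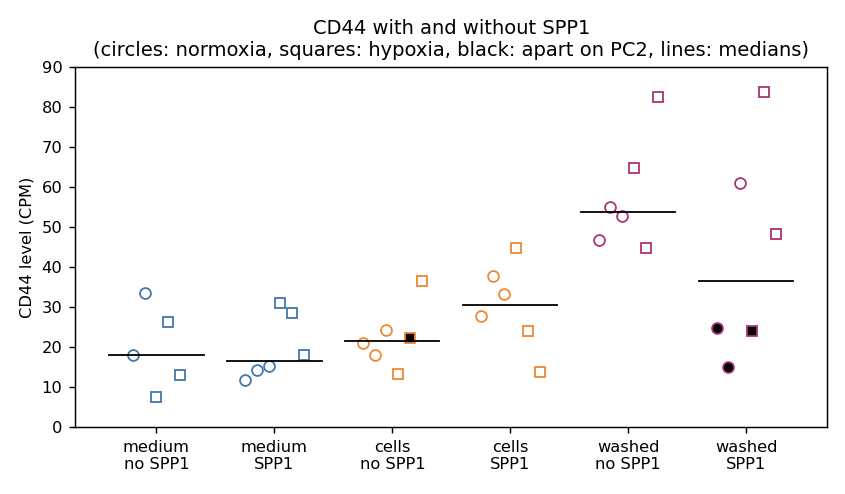
CD44 level in CPM of every exposed library by mode and SPP1 (circles normoxia, squares hypoxia), with a line at the median of each set and the 4 libraries apart on the second principal component (PC2) in black. Of the 6 washed libraries with SPP1, the 3 black ones sit at 15.0 to 24.8 CPM and the 3 others at 48.1 to 83.6 CPM.

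Within single oxygen levels, where no test was run, CD44 ranges with and without SPP1 overlapped in 4 of 6 pairs of groups. The exceptions were both in normoxia and went opposite ways: in the medium mode the libraries with SPP1 (11.9 to 15.3 CPM) lay below those without it (18.1 and 33.5 CPM), and in the cells mode those with SPP1 (27.8 to 37.7 CPM) lay above those without it (18.0 to 24.3 CPM). The higher of the medium values without SPP1, 33.5 CPM, belongs to a library that stood apart on the first component. With 2 or 3 libraries per group, ranges can lie apart by chance. The share of all tested IDs that did so was not counted, which holds for all ranges of single groups given here. The SPP1 difference of CD44 was also compared between modes. It differed by 0.49 (95% interval -0.53 to 1.52, adjusted p = 0.986) between cells and medium, by -0.35 (-1.36 to 0.67, adjusted p = 0.869) between washed and medium and by -0.84 (-1.80 to 0.12, adjusted p = 0.686) between washed and cells on the log2 scale. Without the 4 libraries apart on the second component, the last 2 values were 0.22 (adjusted p = 1.00) and -0.24 (adjusted p = 1.00). By edgeR 0 of 3 members were called in these 3 comparisons, against 0% of all tested IDs in each. At an unadjusted p under 0.05 there were 0 members, against 255, 538 and 391 IDs. DESeq2 called 0 members, against 0%, 0.25% and 0.0578% of all tested IDs.

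ITGB1, the common β1 partner of the α subunits, had its highest levels in the medium mode. Its naive libraries had 10.7 and 5.21 CPM. The medium libraries ran from 3.85 to 20.7 CPM (median 10.8 CPM), the cells libraries from 0 to 11.9 CPM (median 5.14 CPM) and the washed libraries from 0 to 16.2 CPM (median 3.12 CPM). The ranges of the 3 modes overlapped. ITGB1 was lower in washed than in medium at 0.383-fold (95% interval 0.219 to 0.673, adjusted p = 0.00337), so that ITGB1 fell and CD44 rose in the same comparison, and it was called without each of the 23 libraries in turn.

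Between cells and medium the log2 fold change of ITGB1 was -0.79 (95% interval -1.54 to -0.04, adjusted p = 0.0767), and it was called with DESeq2 (-0.87, adjusted p = 0.0423). It was also called with only the compared groups in the fit (adjusted p = 0.0395) and without the 4 libraries apart (adjusted p = 0.0455). Between washed and cells it was -0.60 (-1.44 to 0.24, adjusted p = 0.403). Against naive, the log2 fold changes were 0.35 in medium, -0.44 in cells and -1.03 in washed, with adjusted p = 0.730, 0.679 and 0.263.

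The medium normoxia no-SPP1 group stood highest for ITGB1, with 20.7 and 16.7 CPM in its 2 libraries. The library at 16.7 CPM, replicate 3, stood apart on the first component. Medium normoxia no-SPP1 was the only group whose range lay apart from that of its neighbour in the order of means. That neighbour, medium normoxia SPP1, had 12.7, 11.5 and 8.16 CPM. The lowest groups were washed hypoxia SPP1 (1.61, 3.67 and 0.844 CPM) and washed hypoxia no-SPP1 (1.93, 3.13 and 2.23 CPM). These washed hypoxia values came from 1 to 4 counts per library.

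With SPP1, the log2 fold change of ITGB1 was -0.31 in medium (95% interval -1.35 to 0.72, adjusted p = 0.901), 0.95 in cells (-0.15 to 2.04, adjusted p = 1.00) and -0.09 in washed (-1.35 to 1.18, adjusted p = 0.986). It was -0.55 in medium without the 2 medium libraries apart and -0.48 in washed without the 4 libraries apart on the second component. In the cells mode the libraries with SPP1 had a mean of 8.31 ± 4.27 CPM (SD, n = 6) and those without it 4.26 ± 2.57 CPM (SD, n = 6), and the ranges, 2.39 to 11.9 CPM and 0 to 7.62 CPM, overlapped. Within single oxygen levels the ranges overlapped in 5 of 6 pairs of groups, the exception being medium normoxia. There the range without SPP1 rested on 2 libraries, of which replicate 3 stood apart on the first component.

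**Figure D4:**
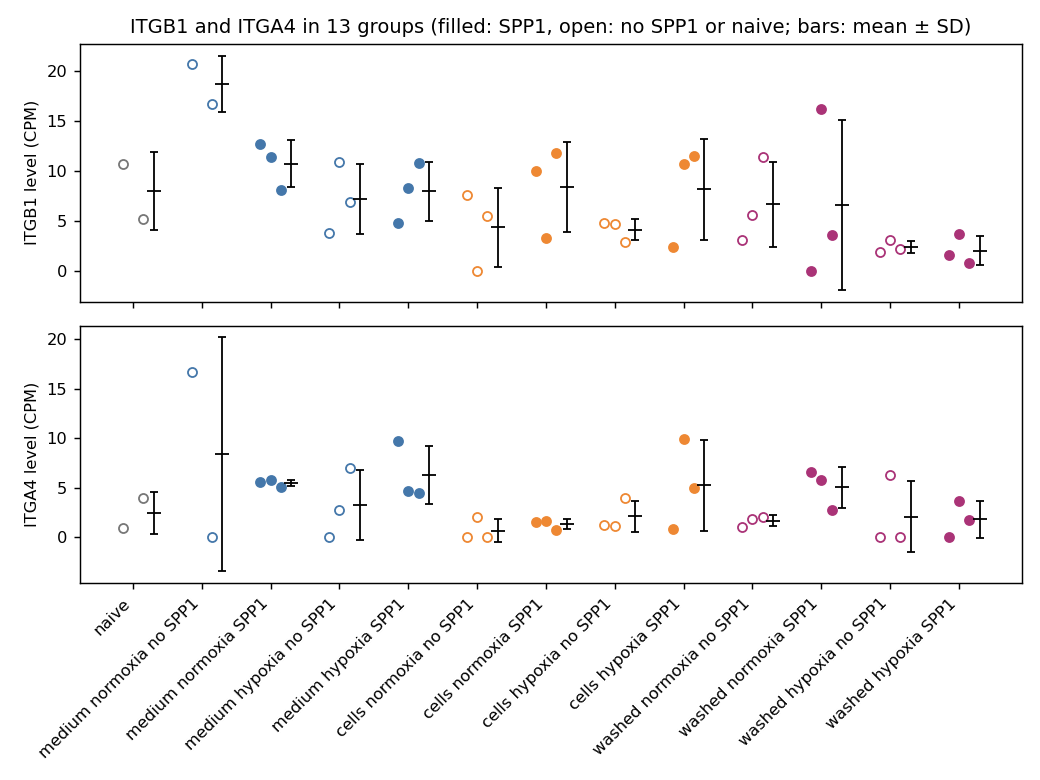
ITGB1 (top) and ITGA4 (bottom) level in CPM of every library (points; filled with SPP1, open without it or naive) in the 13 groups, with the group mean and SD as a black bar. ITGB1 is highest in medium normoxia no-SPP1 at 20.7 and 16.7 CPM and under 4 CPM in all washed hypoxia libraries, and ITGA4 spans 0 to 16.7 CPM within the 2 libraries of one medium group.

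ITGA4, the α4 subunit that lymphocytes use to bind VCAM-1 and fibronectin, was lower in cells than in medium. Its naive libraries had 0.976 and 3.91 CPM. The medium libraries ran from 0 to 16.7 CPM (median 5.10 CPM), the cells libraries from 0 to 9.94 CPM (median 1.37 CPM) and the washed libraries from 0 to 6.63 CPM (median 1.97 CPM). The ranges of the modes overlapped, and all 12 pairs of neighbours in the order of the 13 groups did as well. ITGA4 was 0.336-fold in cells against medium (95% interval 0.149 to 0.758, adjusted p = 0.0236).

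That call held with RLE scaling, with no filter, with DESeq2, with only the compared groups and without each of 21 of the 23 libraries in turn. The log2 fold change was -1.95 without the 2 medium libraries apart on the first component. In that fit medium normoxia no-SPP1 was represented by replicate 2 alone, at 16.7 CPM. The call was lost without either of 2 libraries. Without medium normoxia no-SPP1 replicate 2, which had the highest ITGA4 level of all (16.7 CPM, 25 counts) while replicate 3 of the same group had 0, the log2 fold change went from -1.57 to -0.02 (adjusted p = 0.785), with that group then represented by the 1 library at 0 counts. When replicate 3 of medium hypoxia no-SPP1 was left out instead, the value was -1.25 (adjusted p = 0.105). Between washed and medium the log2 fold change of ITGA4 was -1.15 (95% interval -2.28 to -0.01, adjusted p = 0.0766). In 2 fits that each left medium normoxia no-SPP1 with 1 library, the value moved. It was -1.51 without the 2 medium libraries apart on the first component, both of which had 0 counts of ITGA4. Without medium normoxia no-SPP1 replicate 2 it was 0.42. Between washed and cells it was 0.42 (-0.84 to 1.69, adjusted p = 0.735), or 0.26 without the 4 libraries apart on the second component, and the adjusted p against naive ran from 0.429 to 0.977.

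With SPP1, the log2 fold change of ITGA4 was 0.17 in medium (95% interval -1.26 to 1.61, adjusted p = 0.970), 1.09 in cells (-0.83 to 3.00, adjusted p = 1.00) and 0.71 in washed (-1.06 to 2.49, adjusted p = 0.844). In medium it was -0.63 without the 2 medium libraries apart. It was 2.41 in cells without cells normoxia no-SPP1 replicate 2 and 2.84 in washed without washed hypoxia no-SPP1 replicate 2, and neither was called. Within single oxygen levels the ranges overlapped in 5 of 6 pairs of groups. In washed normoxia the 3 libraries with SPP1 (6.63, 5.78 and 2.72 CPM) lay above the 3 without it (1.04, 1.86 and 2.07 CPM), on 3 to 5 counts against 1 to 2, and replicates 1 and 2 with SPP1 were among the libraries apart on the second component.

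Hypoxia against normoxia was compared within each mode. By edgeR 0 of 3 members were called in any mode, DESeq2 called 0, and at an unadjusted p under 0.05 there was 1 member, ITGB1, in washed and 0 in medium and in cells, where 426, 382 and 928 of the 5193 tested IDs were. By edgeR all tested IDs were called at 0.077% in medium, 3.62% in cells and 0.0385% in washed. By DESeq2 they were called at 0.212%, 5.58% and 0.0193%. For CD44 the log2 fold changes were 0.09 in medium (95% interval -0.67 to 0.85, adjusted p = 0.990), -0.03 in cells (-0.73 to 0.67, adjusted p = 0.972) and 0.47 in washed (-0.20 to 1.13, adjusted p = 0.749). They were 0.51 in medium without the 2 medium libraries apart, and 0.013 in cells and 0.22 in washed without the 4 libraries apart on the second component, with none called.

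ITGB1 in the washed mode had a mean of 2.24 ± 1.03 CPM (SD, n = 6) in hypoxia and 6.65 ± 6.01 CPM (SD, n = 6) in normoxia, with overlapping ranges. Its log2 fold change of -1.55 (95% interval -2.81 to -0.29) did not pass the adjustment (adjusted p = 0.501), and it was -1.05 without the 4 libraries apart on the second component and -0.75 without washed normoxia SPP1 replicate 2, which had 16.2 CPM. In medium and in cells the log2 fold changes of ITGB1 with hypoxia were -0.90 (adjusted p = 0.735) and -0.08 (adjusted p = 0.953), the latter -0.13 without the 4 libraries apart. For ITGA4 they were -0.59 in medium (adjusted p = 0.920), 1.78 in cells (95% interval -0.11 to 3.66, adjusted p = 0.314) and -0.47 in washed (adjusted p = 0.929), the last of which was 0.14 without the 4 libraries apart.

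**Figure D5:**
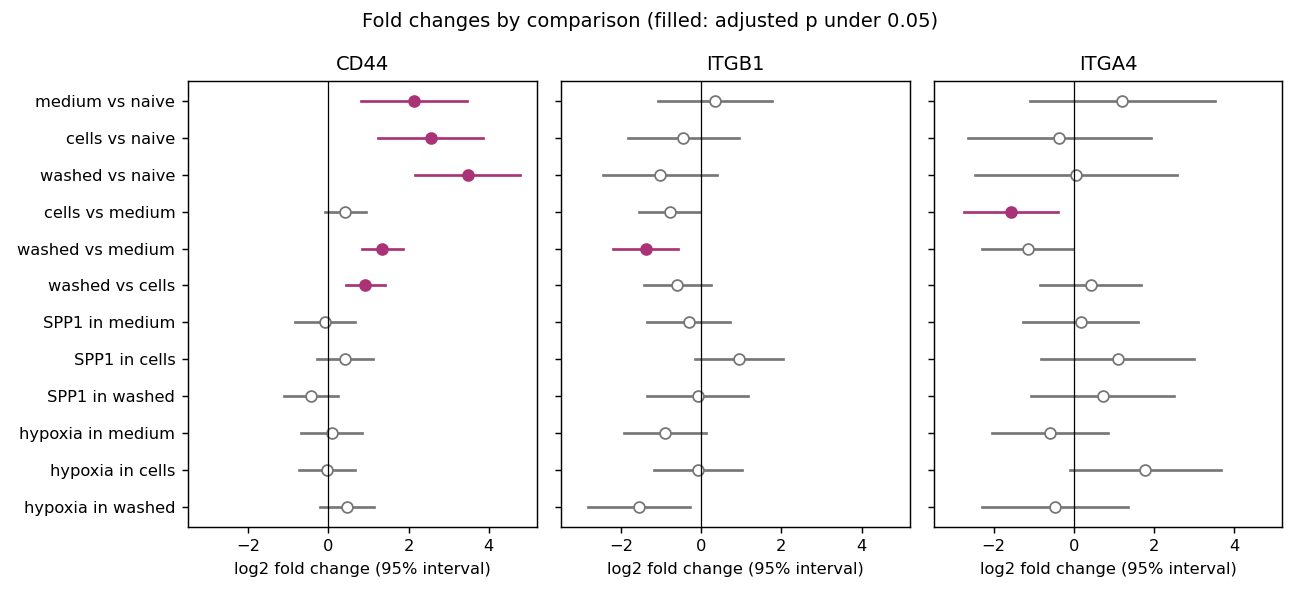
Log2 fold change with its 95% interval (edgeR) of CD44, ITGB1 and ITGA4 in 12 comparisons, the first named group against the second, with filled purple points where the adjusted p was under 0.05. CD44 is called against naive in all 3 modes and in washed against medium and cells, ITGB1 in washed against medium, ITGA4 in cells against medium, and all SPP1 and hypoxia intervals of CD44 include 0.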

How the data were processed

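Splenocyte RNA was made into QuantSeq 3′ libraries with oligo-dT priming and molecular identifiers. Per the series text, the authors trimmed reads with bbduk, used STAR 2.7.10b for alignment to GRCh38, and obtained gene counts by featureCounts (Rsubread 2.0.3). The authors deposited raw counts per human Ensembl ID. Whether identifiers were collapsed is not given in the sources used here, so a count may include PCR copies. Poisson intervals and limits on counts of 0 cover counting error only, while intervals of fold changes come from the model and cover the spread between libraries. Counts were analysed with R 4.3.3 and edgeR 4.0.16: filterByExpr (minimum count 10), TMM scaling, and 1 quasi-likelihood model of 13 group means over 37 libraries, with contrasts averaged over oxygen and SPP1. Alternatives were RLE scaling, no filter, a replicate block, DESeq2 1.42.0, the compared groups alone, plain library totals and leaving out libraries. Scripts were tested on simulated data. All 9 members were named by rule, and those with a mean under 10 counts were stated as poorly captured. The members and lists were chosen with earlier results of these data known. A pathway list and cell type markers, set by symbol, could not be matched to human IDs and were not run. Experiments were independently replicated according to the study, but labels do not tie libraries to animals, so p-values measure the spread between these libraries.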

Additional observations from a re-analysis of the deposited data

Results flagged for a closer look

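Of 36 sets of 5 or 6 libraries examined for CD44, ITGB1 and ITGA4, 4 held a library whose gap to the next one was above the 95% critical value of Dixon's test. Chance gives this in about 1 in 20 independent sets of normally distributed values. These sets share libraries, pool different conditions and often rest on few counts, so that rate is only a rough guide. CD44 was 33.5 CPM in medium normoxia no-SPP1 replicate 3, against 18.1 CPM for the next of the 5 medium normoxia libraries. ITGB1 was 16.2 CPM in washed normoxia SPP1 replicate 2, against 3.67 CPM for the next of the 6 washed SPP1 libraries. ITGA4 was 9.67 CPM in medium hypoxia SPP1 replicate 1, against 5.73 CPM for the next of the 6 medium SPP1 libraries. ITGA4 was 6.26 CPM in washed hypoxia no-SPP1 replicate 2, against 2.07 CPM for the next of the 6 washed no-SPP1 libraries.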

How the results depend on the processing

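The 2 removals of libraries that stood apart were chosen after seeing the data, and each left a group with 1 library. The test across the 13 groups called 2 members, not 1, with every ID tested (13.2% of all IDs called), with DESeq2 (63.2%), without the 4 libraries apart on the second component (56.4%) and without the 2 medium libraries apart (55.3%), against 53.6%. Cells against medium called 2, not 1, with DESeq2 (49.9%), with the compared groups alone (52.8%) and without the 4 libraries apart (51.6%), against 48.7%. Leaving out each library in turn gave 1 to 2 members called by the test across the 13 groups (47.9% to 59.5% of all IDs), 0 to 1 for medium (10.9% to 34.6%) and for cells against naive (9.15% to 28.7%), 0 to 2 for cells against medium (41.6% to 49.5%) and 2 to 3 for washed against medium (54.1% to 59.3%). Fits with the replicate block changed no call (CD44 washed against cells 0.90, adjusted p = 0.0198). The deviations of 187 same-numbered pairs had a median correlation of 0.0044 (from -0.48 to 0.53), against 0.00067 in 374 other pairs. No pairing by replicate number was seen across all pairs, but a median cannot exclude it in some of the groups. RLE scaling moved the median log2 fold change of all IDs by 0.112 in cells against naive and 0.111 in washed against naive, where CD44 stayed called at 2.46 and 3.37.

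Signs turned only in differences that were not called. Without the 4 libraries apart, the log2 fold change of CD44 was 0.15 for SPP1 in washed, 0.013 for hypoxia in cells and 0.22 for the SPP1 difference between washed and medium, and that of ITGA4 was 0.14 for hypoxia in washed. ITGA4 was -0.63 for SPP1 in medium without the 2 medium libraries apart. CD44 was 0.00033 for hypoxia in cells with RLE scaling. Leaving out single libraries gave, for CD44, -0.32 to 0.21 for SPP1 in medium, -0.20 to 0.35 for hypoxia in medium and -0.30 to 0.13 for hypoxia in cells. For ITGB1 it gave -0.055 to 0.98 for medium against naive, -0.83 to 0.19 for cells against naive, -0.88 to 0.21 for SPP1 in washed and -0.35 to 0.21 for hypoxia in cells. For ITGA4 it gave -2.21 to 0.42 for washed against medium, -0.64 to 1.09 for washed against cells, -0.33 to 3.23 for SPP1 in medium and -1.21 to 2.49 for hypoxia in medium. The cause was not tested. CD44 had a mean of 33.2 counts per library and every other member under 10. How far sequencing depth and the alignment of mouse reads to a human genome each set these low counts was not tested.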

Other observations

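The IDs whose log2 CPM over the 13 group means was most like that of CD44 were ENSG00000231211.2 (Pearson r = 0.925, mean of 7.81 counts) and ENSG00000237433.1 (r = 0.923, mean of 119 counts), out of 5190 IDs compared, of which 7 had r over 0.9. The mean level of ENSG00000231211.2 was 0 CPM in naive, 4.10 CPM in medium, 8.39 CPM in cells and 10.8 CPM in washed. ENSG00000237433.1 had 45.7 CPM in naive, 85.2 CPM in medium, 115 CPM in cells and 141 CPM in washed. The points share libraries and scaling, and the IDs have no symbol in the tables used here.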
